A study of Mus musculus with 4 samples.

Results

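Chromatin accessibility at the promoters of cytosolic ribosomal protein genes was compared between wild-type (WT) and Hemgn knockout (KO) mouse livers. The members were the protein-coding genes of the RefSeq table whose symbol is Rpl or Rps followed by a digit, plus Rplp0, Rplp1, Rplp2 and Rpsa, without kinase genes (Rps6k) and pseudogene symbols (-ps). This rule gave 89 of 21774 protein-coding genes. It uses symbols only, so it took in 77 of the standard ribosomal proteins and 12 paralogs or other genes with a like symbol. All livers were taken at embryonic day 14.5, when the organ is filled with maturing red cells. About 50000 cells per library went through Omni-ATAC, in which a transposase cuts and tags open DNA for sequencing. There were 4 libraries, WT replicates 1 and 2 and hemogen KO replicates 1 and 2. Hemgn codes for hemogen, a protein of blood cell nuclei. The labels do not say what the KO allele removes, nor whether replicates are separate embryos, so the spread between replicates may be technical.

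The ribosome has a large subunit, which forms peptide bonds and carries the Rpl proteins, and a small subunit, which reads the messenger RNA and carries the Rps proteins. Their genes are expressed in all cells, and many carry a C and a run of pyrimidines at the start of transcription; the resulting terminal oligopyrimidine tract lets the cell tune translation of these messages to nutrient signals. Red cell precursors need many ribosomes to make globin, and in people loss of 1 copy of several of these genes causes Diamond-Blackfan anemia, a failure of red cell production.

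The libraries are described by their peak lists. They held 47858 and 34181 peaks in WT replicates 1 and 2, and 35426 and 43018 peaks in KO replicates 1 and 2. The lists carry no read depth, and longer lists hold more weak peaks, which raises the percentile of a strong one. Of 12 erythroid marker genes, 10 had a boundary peak in all 4 libraries, against 2 of 6 hepatocyte markers and 2 of 12 markers of other blood and stromal cells. The exceptions among the erythroid markers were Gata1 and Epor. Over all protein-coding genes 55.4% had such a peak in all 4 libraries. The ranks of these marker peaks were low: the median mean percentile was 49.9 for the 10 erythroid genes and 82.9 over all genes. It was 40.1 for the 2 hepatocyte genes and 42.7 for the 2 others. The strongest boundary peak of Hemgn itself stood at percentiles 33.0 and 28.0 in WT and 35.5 and 34.3 in KO, which checks neither the deletion nor its product.

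The start sites of the members are shown first, because a pyrimidine run there is what these genes are known for. RefSeq promoters (build GRCm38.p6) were matched for 69 of the 89 members, with 81 start sites. Each sequence below covers 60 bases before and 20 bases from the listed start site, 5′ to 3′, and the capitals mark the longest run of C and T that touches the 10 bases on either side of the start. The first 4 have long runs and come from the large subunit.
Rpl35, chr2:39005112-39005191, minus strand: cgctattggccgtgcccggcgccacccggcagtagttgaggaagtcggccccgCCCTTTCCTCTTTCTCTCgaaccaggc
Rpl27a, chr7:109519135-109519214, plus strand: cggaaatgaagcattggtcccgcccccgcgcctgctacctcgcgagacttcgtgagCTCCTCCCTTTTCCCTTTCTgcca
Rpl34, chr3:130730318-130730397, minus strand: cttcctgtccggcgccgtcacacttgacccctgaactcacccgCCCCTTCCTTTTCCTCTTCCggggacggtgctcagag
Rpl7a, chr2:26910747-26910826, plus strand: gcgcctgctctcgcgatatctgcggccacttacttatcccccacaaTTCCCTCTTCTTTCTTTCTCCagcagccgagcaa
The runs in Rpl35, Rpl27a, Rpl34 and Rpl7a are 18, 20, 20 and 21 bases long. The next 4 belong to genes with high percentiles, and their runs range from 2 to 10 bases.
Rpl22l1, chr3:28805448-28805527, plus strand: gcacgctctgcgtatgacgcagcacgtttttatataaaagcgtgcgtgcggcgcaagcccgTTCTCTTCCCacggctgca
Rps27, chr3:90213629-90213708, minus strand: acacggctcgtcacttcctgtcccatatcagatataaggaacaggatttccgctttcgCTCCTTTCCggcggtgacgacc
Rps3a1, chr3:86142649-86142728, minus strand: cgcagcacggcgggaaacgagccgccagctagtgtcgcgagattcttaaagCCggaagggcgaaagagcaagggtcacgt
Rpl5, chr5:107900468-107900547, plus strand: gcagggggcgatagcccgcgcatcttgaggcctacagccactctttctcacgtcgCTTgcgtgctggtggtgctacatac
The last 6 are genes on which the results below turn. Rps23, Rps9, Rpl12 and Rps25 had the lowest unadjusted p in the genotype comparison, Rps19 is the gene mutated most often in Diamond-Blackfan anemia, and Rps2 was missed by the boundary rule.
Rps23, chr13:90923062-90923141, plus strand: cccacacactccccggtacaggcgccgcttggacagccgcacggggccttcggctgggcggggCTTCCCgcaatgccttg
Rps9, chr7:3703981-3704060, plus strand: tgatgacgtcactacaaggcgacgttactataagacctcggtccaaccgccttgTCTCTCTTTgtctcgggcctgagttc
Rpl12, chr2:32961652-32961731, plus strand: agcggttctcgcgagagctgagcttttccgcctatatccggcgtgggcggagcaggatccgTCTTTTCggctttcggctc
Rps25, chr9:44407654-44407733, plus strand: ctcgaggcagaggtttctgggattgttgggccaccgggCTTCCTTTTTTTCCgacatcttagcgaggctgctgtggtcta
Rps19, chr7:24884532-24884611, plus strand: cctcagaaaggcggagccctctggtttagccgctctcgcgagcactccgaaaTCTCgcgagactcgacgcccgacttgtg
Rps2, chr17:24720003-24720082, plus strand: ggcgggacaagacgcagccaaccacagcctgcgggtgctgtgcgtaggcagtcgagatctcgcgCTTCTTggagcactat

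Pyrimidine runs of at least 8 bases by the start site were found in 39.5% of member promoters (32 of 81), in 13.7% of 21263 protein-coding promoters and in 13.7% of the 13193 promoters of genes with a start-site peak in all 4 libraries. The median run was 6 bases in members (quartiles 4 and 10) and 4 bases in both other sets (quartiles 3 and 6). A C at the start followed by 4 pyrimidines was found in 18.5%, 2.206% and 2.29% of promoters in the same order. Listed start sites can be off by some bases, so these shares depend on the annotation. The thresholds for runs were chosen with the sequences in view.

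Short motifs were searched in the 300 bases of each promoter on both strands. The letters CTCGCGA, from the core of a palindrome common in promoters of housekeeping genes, were in 15 of 81 member promoters (18.5%), in 2.60% of all promoters and in 3.797% of those with a start-site peak. The ETS core CCGGAAG was in 27 (33.3%), against 11.6% and 16.97%. The pyrimidine letters CTCTTTC were in 21 (25.9%), against 7.73% and 6.96%, and the YY1 core AAGATGG in 12 (14.8%), against 6.24% and 6.70%. For the other motifs, the shares of member, all and open promoters follow in that order. The GC box GGGCGG was in 58.0%, 46.2% and 64.7%, and CCAAT in 30.9%, 38.2% and 37.4%. The GATA letters AGATAA, the core bound by erythroid GATA factors, were in 7.41%, 9.65% and 6.02%. The TATA letters TATAAA were in 9.88%, 12.6% and 6.63%, the E-box CACGTG in 9.88%, 7.84% and 9.998%, the NRF1 core GCATGCG in 6.17%, 4.44% and 6.21%, and CTTTTCC in 14.8%, 7.92% and 7.66%. The members' share of GC boxes and of GATA and TATA letters thus lay between those of the 2 other sets. Members and open promoters had the same median number of CpG dinucleotides, 21, while all promoters had 13. A match describes letters and is not a bound site. Promoters of 1 gene can overlap, so matches are not independent.

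**Figure D1:**
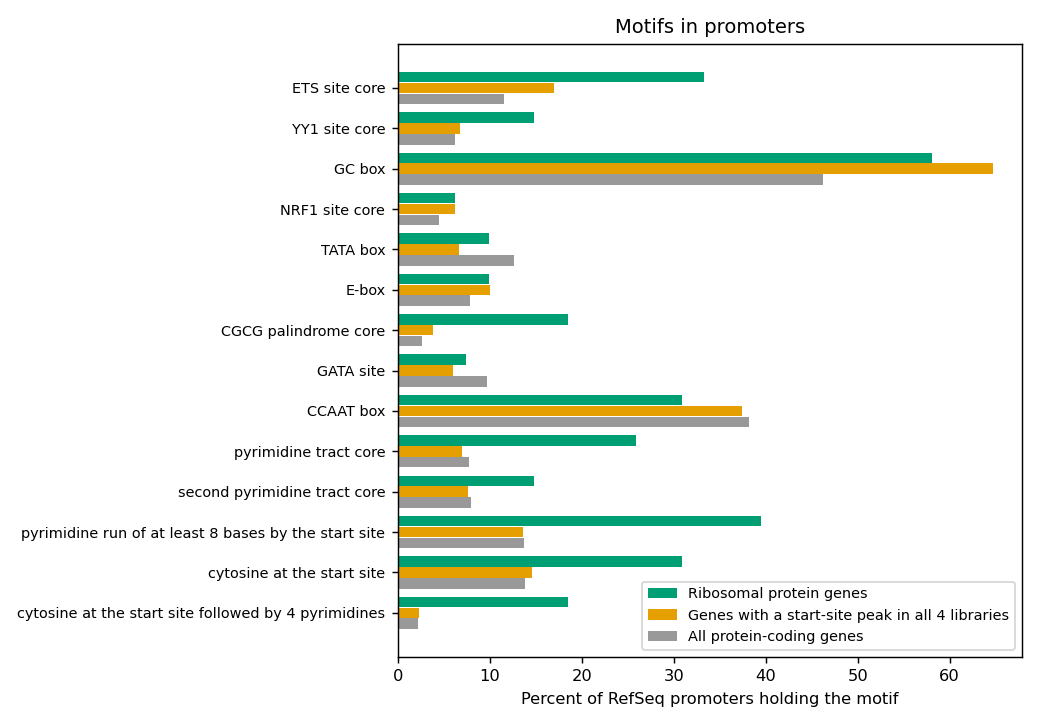
Percent of RefSeq promoters (x axis) that hold each motif or start-site feature (y axis), for 81 promoters of ribosomal protein genes, 13193 promoters of genes with a start-site peak in all 4 libraries and 21263 promoters of all protein-coding genes. Green bars stand above both others for the CGCG palindrome core (18.5% of member promoters against 3.797% and 2.60%) and for the pyrimidine features.

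A boundary peak, meaning a peak whose summit lay within 1 kb of either end of the gene, was found in all 4 libraries at 79 of 89 members (88.8%). Over all protein-coding genes the share was 55.4%. The number of members with such a peak was 80 in both WT libraries, 79 in KO replicate 1 and 80 in KO replicate 2. Among the standard proteins 73 of 77 had one in every library, with 43 of 46 for the large and 30 of 31 for the small subunit. Mitochondrial ribosomal protein genes, which serve the organelle's own ribosome, were alike with 73 of 78, as were translation factors with 38 of 39 and ribosome biogenesis factors with 57 of 60. Outside the symbol rule, Fau, whose ribosomal product is made fused to a ubiquitin-like part, and the scaffold gene Rack1 each had such a peak in every list.

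There were 10 members without a boundary peak in every library. No library had one at 8 of the 89 members, against 36.6% of all genes. Of the 10, 4 were standard and had a peak close by. Rpl22 had a peak 174 to 175 bp after a listed start site in all libraries, at percentiles 90.4 and 88.8 in WT and 90.3 and 90.2 in KO. That summit is 1464 to 1465 bp from the gene boundary; weaker peaks met the rule in WT replicate 1 (55.2) and KO replicate 2 (38.0). Rps2, a protein at the entry of the messenger channel, had its summit 19 to 21 bp before its listed start, which is 1942 bp inside the gene boundary. Rps2 ranked at 67.1 and 55.2 in WT, with 60.6 and 63.0 in KO. Rpl17 had a peak inside the gene, 1571 and 1570 bp from the boundary in WT and 1710 bp in both KO libraries, at percentiles 97.5, 96.7, 93.6 and 95.9. Rpl7 had its nearest summit 1189, 611, 1277 and 1192 bp from the boundary, so that only WT replicate 2 met the rule, at percentile 59.2. The gene Rdh10 has its boundary within 1 kb of that summit.

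Rps27l, a p53-responsive paralog of Rps27, resembled Rps2: its summit lay 85 to 86 bp after a listed start, 1462 bp inside the boundary, at percentiles from 98.3 to 98.6 in the 4 libraries. The other 5 had no peak at a listed start or boundary in any library. They were Rpl10l and Rpl39l, best known from testis, and Rpl32l, Rpl37rt and Rps27rt. Rpl37rt had a peak inside the gene in 3 libraries, at percentiles 48.7 and 34.9 in WT and 8.56 in KO replicate 2. Between the genes just inside and just outside the 1 kb window, Rpl29 and Rpl38 had their summits up to 700 and 978 bp away and Rpl7 and Rpl22 up to 1277 and 1465 bp.

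The boundary rule also took in peaks away from a listed start. For 5 members with a listed start, the strongest boundary peak was more than 1 kb from that start, upstream of it in Rpl18 and Rpl19 and downstream in Rpl41, Rpl4 and Rpl3l. Rpl19, which reaches from the large towards the small subunit, had the lowest boundary percentiles of all members, 21.2 and 3.68 in WT and 14.4 and 16.9 in KO. That peak also lies at the boundary of Cacnb1, a calcium channel gene, and the listed start of Rpl19 is 4707 bp from the gene boundary. The peak at the start of Rpl19 had percentiles 82.7 and 78.8 in WT and 80.5 and 80.8 in KO. Rpl18 had 69.5, 61.7, 61.2 and 67.3 at its start in the same order of libraries. Rpl4, by the exit tunnel, took its rank among the highest from a peak shared with Snapc5, while its own start had 87.2 and 80.7 in WT and 79.4 and 83.8 in KO. Rpl41, which codes for the smallest ribosomal protein, had 58.9, 43.8, 46.1 and 53.6 at its start, with the stronger peak shared with Zc3h10. Rpl3l, the paralog of Rpl3 in heart and skeletal muscle, had no peak at its start in any library, and its boundary peak was shared with Msrb1. By the start site alone, 63 of 69 members (91.3%) had a peak in all 4 libraries, against 58.8% of 17492 genes with a listed start.

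Summits sat close to the start. In WT replicate 1 the median summit was 25 bp after the listed start (quartiles -52.5 and 60.5) in members and 41 bp after it (quartiles -53.0 and 126.0) over 10282 genes. Within 100 bp of the start lay 69.8% (WT replicate 1), 65.1% (WT replicate 2), 61.9% (KO replicate 1) and 65.1% (KO replicate 2) of member summits. Over all genes the shares were 51.5%, 52.6%, 49.97% and 52.2% in the same order, so the member share was the higher one in each library.

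**Figure D2:**
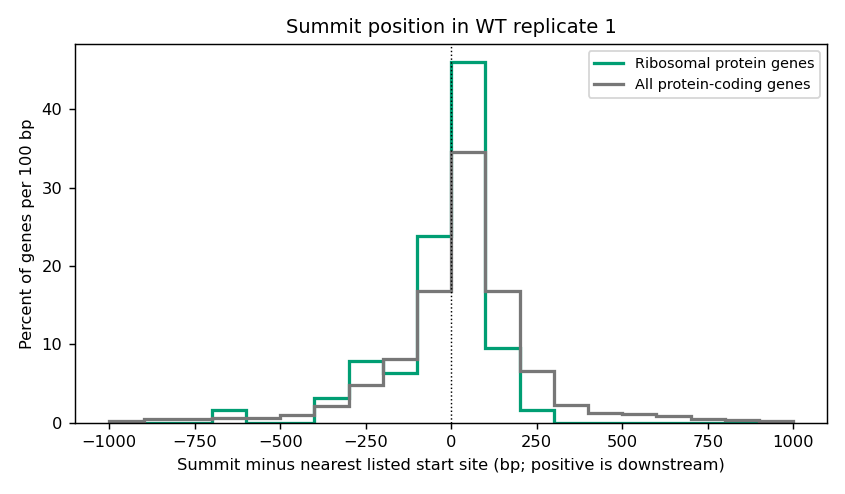
Percent of genes per 100 bp (y axis) by the distance of the strongest start-site summit from the nearest listed start in bp (x axis, positive is downstream), in WT replicate 1, for 63 ribosomal protein genes (green) and 10282 protein-coding genes (grey). The green line is higher in both bins next to the start.

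Each peak was then ranked within its own list by the authors' fold enrichment, and the percentile is the share of peaks in that list with an equal or lower fold. The 79 members had median percentiles of 88.7 (WT replicate 1), 84.4 (WT replicate 2), 85.0 (KO replicate 1) and 87.4 (KO replicate 2). All 12066 genes with a boundary peak in every library had 85.6 and 80.4 in WT and 81.4 and 84.4 in KO. The longer list of each genotype gave the higher median for members and for all genes alike. The member distribution was narrower than that of all genes at its lower end: 75 of 79 members (94.9%) were in the upper 50% of all 4 lists, against 83.8% of genes. The upper 10% of every list held 16 members (20.3%) and 23.2% of genes. By single library, it held 44.3% of members and 36.1% of genes in WT replicate 1, and 27.8% and 26.7% in WT replicate 2. In KO replicate 1 it held 24.1% and 27.6%, and in KO replicate 2 32.9% and 33.2%. The ranks of related groups lay around this level. Median mean percentiles were 84.5 for large subunit members, 88.1 for small subunit members, 91.7 for mitochondrial ribosomal proteins, 90.1 for ribosome biogenesis factors and 84.3 for translation factors.

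**Figure D3:**
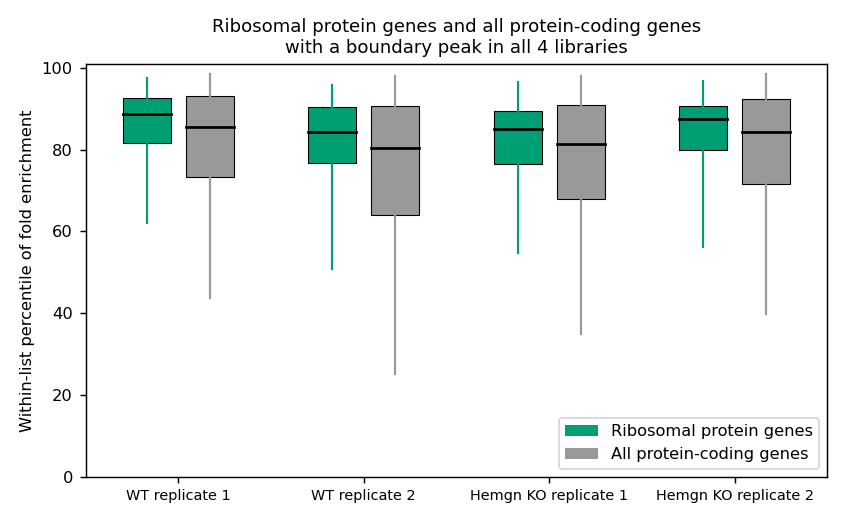
Within-list percentile of fold (y axis) in each library (x axis) for 79 ribosomal protein genes and 12066 protein-coding genes with a boundary peak in all 4 libraries; boxes are quartiles with the median, and lines run from the 5th to the 95th percentile of genes. Member medians lie between 84.4 and 88.7 and all-gene medians between 80.4 and 85.6.

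Rpl21, a large subunit protein, had the highest percentiles of all members, 98.6 and 98.9 in WT and 99.0 in both KO libraries. It was followed by Rpl22l1, the paralog that can stand in for Rpl22, with 98.1 and 97.3 in WT and 98.5 and 98.7 in KO. Next came Rpl4 through its shared peak, then Rps3a1 (97.7, 96.0, 95.8 and 97.6) and Rps27 (97.1, 95.8, 96.8 and 96.5, a peak shared with Rab13). The ranges of neighbours in this order overlap over the 4 libraries.

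At the low end, after Rpl19, stood Rps23rg1, a mouse retrocopy of Rps23 that codes for a membrane protein, with 58.3 and 19.8 in WT and 39.0 and 33.0 in KO. Its 2 WT libraries differed more than the genotypes did. Rpl23a, at the exit of the peptide tunnel, had 56.4, 38.5, 39.8 and 42.8. Rpl13a, known for silencing messages in inflammation, had 62.4, 52.2, 57.7 and 57.3. The list percentiles of both genotypes overlap in each of these genes.

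**Figure D4:**
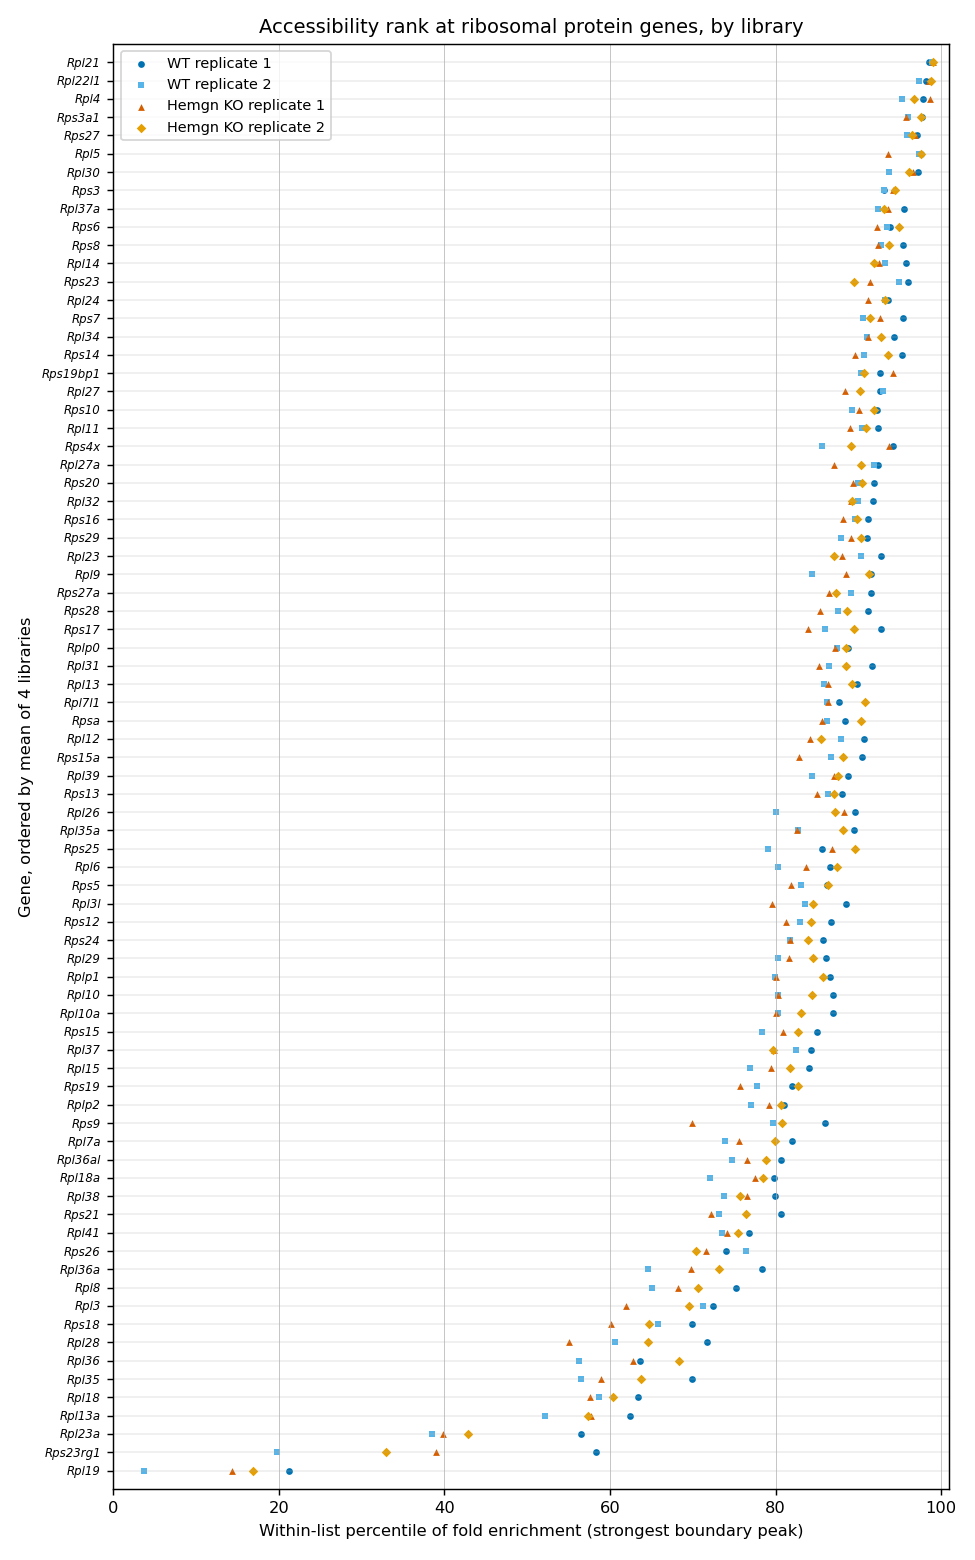
Within-list percentile of fold (x axis) of the strongest boundary peak in each of 4 libraries (point shapes and colours) for 78 of the 79 ribosomal protein genes (y axis), ordered by their mean. Of the 79 genes, 75 lie in the upper 50% of every list, and Rpl19 has the lowest mean.

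The 3 stalk genes, whose proteins recruit elongation factors, were close together: Rplp0 had 88.7 and 87.5 in WT and 87.2 and 88.5 in KO, Rplp1 86.6, 79.9, 80.03 and 85.8, and Rplp2 81.0, 77.0, 79.2 and 80.6. Rpl5 and Rpl11 form a particle with 5S ribosomal RNA that holds back Mdm2 when ribosome assembly fails. Rpl5 had 97.6 and 97.4 in WT and 93.6 and 97.6 in KO, and Rpl11 had 92.4, 90.4, 89.0 and 91.0. Rps19 had 82.0 and 77.8 in WT and 75.7 and 82.7 in KO, so the genotypes overlap. All 21 genes of the Diamond-Blackfan list had a boundary peak in every library, with a median mean percentile of 87.9. On the X chromosome Rps4x had 94.2, 85.7, 93.8 and 89.1, Rpl10 86.9, 80.2, 80.3 and 84.5, Rpl39 88.8, 84.4, 87.0 and 87.6, and Rpl36a 78.4, 64.6, 69.8 and 73.2. Among the remaining paralogs Rpl36al had 80.7, 74.7, 76.6 and 78.9, Rpl7l1 87.7, 86.2, 86.4 and 90.8, and Rps19bp1, a partner of Rps19 rather than a ribosomal protein, 92.6, 90.4, 94.1 and 90.7.

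Peak widths of members lay near those of other genes. The medians of WT replicates 1 and 2 and KO replicates 1 and 2 were 1058, 1020, 1039 and 1059 bp, against 1058, 999, 1010 and 1075 bp over all genes with a boundary peak in every library. Means over the libraries ran from 421 bp at Rps23rg1 to 1565 bp at Rpl36al, whose peak is shared with Mgat2. Of the 79 members, 18 shared the peak with another protein-coding gene boundary. Small nucleolar RNA genes, which guide changes of ribosomal RNA, lie inside 30 members. The 28 standard hosts with a boundary peak in every library had a median mean percentile of 87.4 and the 45 others 85.7.

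Ribosomal protein genes have left many copies in the genome by reverse transcription, and these served as a comparison of sequence without the promoter. Of 318 pseudogenes named after members, 2 (0.629%) had such a peak in every list and 310 had none in any. Over all 10509 pseudogenes the share with a peak in all 4 was 2.49%. The 2 were Rpl5-ps2 and Rpl21-ps8, named here after their values were seen. Reads from copies may be placed uncertainly, and their treatment is not stated in the labels.

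No member differed between the genotypes by the test across all genes. For this test, genes with a boundary peak in all 4 libraries were ranked against each other in every library, so that all libraries rank the same 12066 genes, and ranks were turned into normal scores (a rank on the scale of a standard normal curve). By limma with Benjamini-Hochberg adjustment, 0 of 79 members and 0% of all genes passed 0.05 in either direction. At an unadjusted p under 0.05 there were 4 members, 3 lower and 1 higher in KO, against 8.99% of all genes (4.45% lower and 4.54% higher). With 2 libraries a genotype, an exact permutation test of a single gene cannot give a p below 0.333.

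Rps23, which helps the ribosome decode accurately, had the lowest p. Its peak (chromosome 13, 90922768 to 90923646 in WT replicate 1) had list percentiles of 96.0 and 94.96 in WT and 91.4 and 89.4 in KO. The KO minus WT normal score was -0.53 with a standard error of 0.15, and the limma adjusted p was 0.476. Rps9 (chromosome 7, 3703679 to 3704769) had 86.0 and 79.7 in WT and 69.9 and 80.8 in KO, with a score of -0.40 and a standard error of 0.16 (limma adjusted p = 0.540). In Rps9 the list percentiles overlap, and the ranks among the same genes do not (51.4 and 48.6 in WT, 28.0 and 41.1 in KO). Rpl12, part of the base of the stalk, had a peak shared with Lrsam1 at 90.7 and 87.9 in WT and 84.1 and 85.5 in KO (score -0.32, standard error 0.12, limma adjusted p = 0.535). Rps25, needed by viral internal ribosome entry sites, went the other way with 85.7 and 79.1 in WT and 86.9 and 89.6 in KO (score 0.41, standard error 0.12, limma adjusted p = 0.489). Rps25 shares its peak (chromosome 9, 44406840 to 44407950) with Trappc4, a gene of membrane traffic. The median KO minus WT score with all libraries was -0.055 over members and -0.008 over all genes. Without WT replicates 1 and 2 and KO replicates 1 and 2, the median over members was -0.057, -0.049, -0.070 and -0.047. Over all genes it was -0.017, 0.0006, -0.009 and -0.009 in that order. In each fit without 1 library, the genotype left with 1 library is assumed to vary like the other.

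The WT and KO list percentiles did not overlap at 17 of 79 members. In 4 of them (5.06%) both KO values were above both WT values, against 12.6% of all genes, and in 13 (16.5%) both were below, against 11.8%. The 4 were Rps25, Rps3 (93.1 in both WT libraries, 94.2 and 94.4 in KO), Rpl22l1 and Rpl21. Of those below, the widest gaps of means were at Rpl3 (72.4 and 71.2 in WT, 61.9 and 69.6 in KO), near the peptidyl transferase centre, Rps18 (70.0 and 65.8, 60.1 and 64.7), Rps23, Rpl12 and Rps26 (74.0 and 76.4, 71.6 and 70.4), with KO minus WT differences of -6.06, -5.49, -5.06, -4.48 and -4.23 points. Leaving out the sign, the median difference between replicates at a member was 3.87 points in WT and 2.41 in KO, and between genotype means 1.30. Over all genes these values were 4.59, 2.76 and 1.78. Replicates of each genotype differ in list length, which enters the gap between their list percentiles. A gap between means is also not directly comparable with one between single libraries. Ranked among the same 12066 genes, Rps3, Rpl21 and Rps26 overlap between the genotypes, while Rps25, Rpl22l1, Rpl3, Rps18, Rps23 and Rpl12 do not. Whether a changed share of cells or a change within cells lies behind a difference in bulk liver cannot be told apart.

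Ranked among the same genes, 7 members (8.86%) had both KO values above WT and 27 (34.2%) had both below, where the shares of all genes were 18.4% and 21.6%. The median KO minus WT difference was -1.79 points over members (quartiles -5.12 and 0.82) and -0.14 over all genes. The KO mean was lower at 53 of 79 members (67.1%) and at 51.4% of genes. Leaving out the sign, the median difference at a single member was 2.83 points between WT replicates, 2.99 between KO replicates and 3.05 between genotype means. Over all genes these values were 3.94, 3.54 and 3.18. Medians were -1.79 for 43 large and -2.39 for 30 small subunit members, and -2.88 for the Diamond-Blackfan list, with 7 of 21 below and 1 above. Among standard members, 16 that shared the peak with another gene had a median of -0.43, with 5 below and 3 above. The 57 with a peak of their own had a median of -2.42, with 21 below and 3 above. The difference between these 2 groups was not tested. Mitochondrial ribosomal proteins had a median of -0.58, biogenesis factors -0.36 and translation factors -0.18. Fau had ranks of 16.6 and 18.5 in WT and 13.04 and 13.2 in KO, and Rack1 58.4 and 55.8 against 56.2 and 51.2. No test was made over the members as a set, so these counts describe 4 libraries.

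Single libraries moved these counts. By list percentile, the number above and below was 40 and 13 without WT replicate 1 (57.1% and 14.1% of all genes) and 4 and 65 without WT replicate 2 (15.3% and 58.3%). It was 11 and 13 without KO replicate 1 (33.1% and 15.9%) and 7 and 39 without KO replicate 2 (18.1% and 36.8%). The counts over all genes moved with those over members. With 3 libraries a lack of overlap is also easier to reach. Ranked among the same genes, the counts above and below were 17 and 38 without WT replicate 1, 15 and 39 without WT replicate 2, 15 and 41 without KO replicate 1, and 20 and 39 without KO replicate 2. The shares of all genes above were 33.1%, 35.8%, 30.9% and 33.7% in that order, and those of members 21.5%, 18.99%, 18.99% and 25.3%. The shares of all genes below were 38.7%, 36.6%, 34.3% and 36.6% in that order, and those of members 48.1%, 49.4%, 51.9% and 49.4%.

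**Figure D5:**
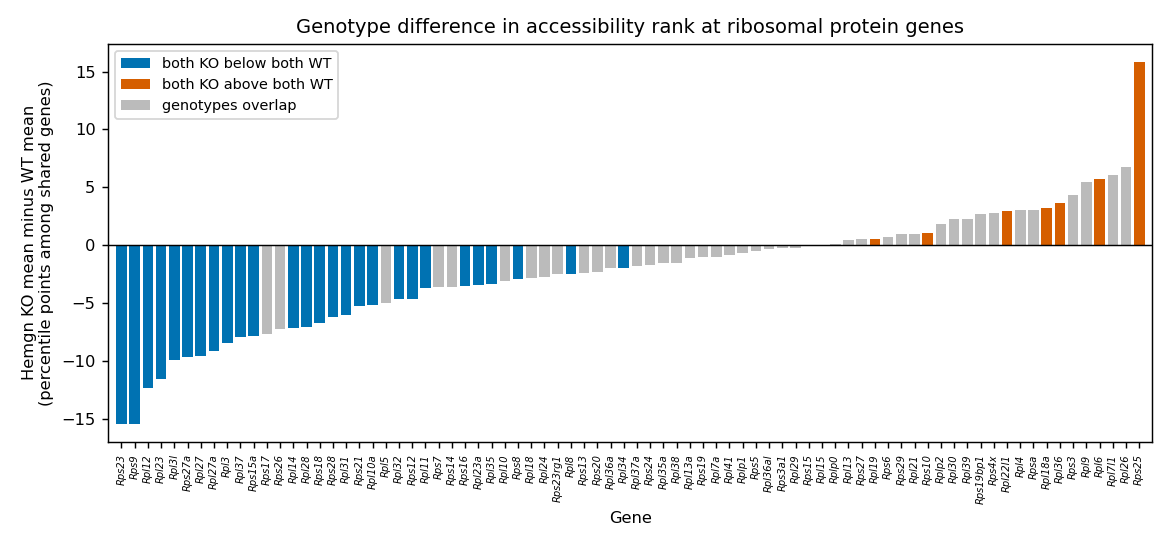
KO mean minus WT mean of the percentile among 12066 shared genes (y axis, percentile points) for 78 of the 79 ribosomal protein genes (x axis), as bars from 0. Blue marks the 27 genes with both KO libraries below both WT libraries, orange the 7 with both above, and grey an overlap; the values run from -15.4 at Rps23 to 15.8 at Rps25.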

How the data were processed

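ATAC-seq peak lists of 4 libraries were used, 1 per library and none pooled. The submitters' processing notes name MACS2 2.2.7.1, Picard 2.21.4, SAMtools 1.9 and Bowtie2 2.3.5, without roles or settings. The build is not stated there or in the lists. The deposited lists give for each peak a score, a fold enrichment (a ratio over the background of that library, by the authors' peak caller), a −log10 p and a −log10 q. These deposited values belong to 1 list and were only ranked within it. The summit position is the deposited offset from the peak start.

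Peaks outside the autosomes, X and Y were dropped. Genes came from a RefSeq table of GRCm38.p6, without genes on unplaced scaffolds and patches. Its fit to the lists was checked: 27.8% to 35.3% of summits were within 1 kb of a boundary, and 6.67% to 7.31% once moved by 5000 to 50000 bp. For each gene the boundary peak of highest fold was kept. Start sites and promoter sequences (250 bases before and 50 from each start) are RefSeq's. Coordinates of peaks are those of the lists, counted from 1. Pairing by replicate number was checked: deviations of WT and KO replicate 1 from their genotype means had a correlation of -0.0981 over genes, so the numbers were not taken as pairs.

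The genotype test was limma 3.58.1 in R 4.3.3 on normal scores, KO against WT, without a block. Its code was tried on simulated data with equal noise at every gene and a large shift at 200 genes. That trial does not show how small a difference the test can detect in these libraries. The remaining steps used Python 3.11.15, pandas 2.3.3 and scipy 1.17.1. Alternatives were windows of 500 bp and 2 kb, start sites only, lists of equal length (34181 peaks), the upper 50% of each list, −log10 q in place of fold, the nearest summit, peak overlap, autosomes, other rank scales, absent peaks at the lowest rank, a replicate block and leaving out each library. The members and lists were chosen with earlier results of these data known. Named genes were members lacking a peak in a library, the 5 highest and 5 lowest by mean percentile, the 5 largest differences in each direction among those without overlap, the stalk, 5S, X-linked and paralog genes, and Rps19; Rps9, and members shown for their sequence, start site or the window, were named after their values were seen. Of the planned list of paralogs, Rps4l was not found in the table, while Rpl32l, Rpl37rt and Rps23rg1 were added. Rpl17 and Rps14 are not among the sequences. A member and a gene outside the rule are not reported by name here; both stay in the counts.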

Additional observations from a re-analysis of the deposited data

How the results depend on the processing

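By limma 0 of the members passed under each alternative run with all libraries, the replicate block included (0 members, lowest adjusted p 0.626). At an unadjusted p under 0.05 by limma there were 2 of 79 members under the block and 4 without it. Over all 12066 genes there were 874 under the block and 1085 without it. By −log10 q there were 8 members, 2 higher and 6 lower in KO, and 1295 of all genes. With percentiles in place of normal scores there were also 8, 1 higher and 7 lower, and 1054 of all genes. The other alternatives with all libraries gave from 2 to 5 members. Over all genes, 2 passed with absent peaks at the lowest rank and 5 with the nearest summit, against 0 otherwise. Members with a boundary peak in every library numbered from 75 (500 bp window and upper 50% of each list) to 84 (2 kb window). They were 63 of 69 by start site and 79 without any 1 library. The shares of all genes were 47.4% (500 bp window), 46.4% (upper 50% of each list) and 60.8% (2 kb window), against 84.3%, 84.3% and 94.4% of members. By start site 58.8% of genes had one, and without 1 library 55.6% to 57.1%. The median mean percentile stayed within the spread between replicates except on the scale of shared genes, where it was 60.6. Leaving out each library there, a setting added after seeing the data, gave 59.8, 61.1, 60.1 and 60.96 (without WT replicates 1 and 2 and KO replicates 1 and 2). The median width was 1074 bp by start site, where members without a listed start are left out, against 1050 bp.

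Counts without overlap moved most. Members above and below were 9 and 21 in lists of equal length (22.7% and 16.3% of all genes), 7 and 27 by rank among shared genes (18.4% and 21.6%), and 0 and 11 by −log10 q (8.06% and 8.79% of all genes). Without 1 library they ranged from 4 to 40 above and from 13 to 65 below by list percentile, and were 17, 15, 15 and 20 above and 38, 39, 41 and 39 below among shared genes, where all genes had 33.1%, 35.8%, 30.9% and 33.7% above and 38.7%, 36.6%, 34.3% and 36.6% below. The median KO minus WT list percentile was -0.70 and ranged from -2.92 to 1.17 without 1 library, while the median over all genes was 0.04 and ranged from -1.98 to 1.99. Ranked among shared genes, the median over members was -1.79, and -1.82, -1.40, -2.23 and -1.73 without WT replicates 1 and 2 and KO replicates 1 and 2. Depth is not stated, so differences in depth and in accessibility cannot be told apart at 1 gene.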
